A study of Arabidopsis thaliana with 4 samples.

Results

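A long copy of mitochondrial DNA lies in the nuclear genome of Arabidopsis thaliana, on chromosome 2, and its genes carry nuclear locus numbers. The loci described here are those numbered AT2G07500 to AT2G07999, selected on the sum of their reads, which had to reach 40 over the 4 libraries of the study. That rule kept 59 of the 162 loci of the numbered range, and of the 15664 nuclear loci with at least 40 reads in the whole study. Another 65 loci of the range had reads but fewer than 40, and 38 had none. Just outside the minimum were AT2G07623 with 32 reads, AT2G07792 with 32.2, and AT2G07625 and AT2G07631 with 38 each. Just inside it were AT2G07721 with 40, AT2G07672 with 40.7, AT2G07775 with 45 and AT2G07702 with 48 reads. Of the 59 loci, 58 are listed as protein coding and 1 as a small nucleolar RNA. The gene table gives a symbol to 3 of them: ABCI5 (AT2G07771), ABCC13 (AT2G07680) and MCM5 (AT2G07690).

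The study asked which RNAs are bound by MTA, the adenosine methylase that deposits N6-methyladenosine on RNA, with primary microRNA transcripts named in its title. RNA was sequenced from the nuclear fraction of leaves, called aerial tissue in another field of the labels, of 4 weeks old plants of the Col-0 ecotype, crosslinked with 0.1% formaldehyde. The 4 groups were an immunoprecipitate (IP) on GFP-binding beads from a line labelled MTA-GFP, the input of that line, an IP from a control line, and the input of the control line. Titles name the control GFP where its genotype entry reads CFP, and the labels give neither promoter nor number of plants for either line. Each group had 1 library, so no difference below has a replicate check, and the intervals (95%) cover counting error only. Reads without molecular identifiers are not independent molecules, which those intervals do not cover.

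Plant mitochondria keep their own genome, which is transcribed inside the organelle and encodes ribosomal RNAs, transfer RNAs and some subunits of the respiratory complexes and of ATP synthase. The remaining subunits of those complexes are encoded by ordinary nuclear genes and imported as proteins. Pieces of organelle DNA also move into the nuclear genome over evolution, and the chromosome 2 insertion in Arabidopsis is a well known large example. A read from such a region can match both the nuclear copy and the mitochondrial original.

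The libraries held 36098699 reads (MTA-GFP IP), 43950307 (MTA-GFP input), 45198238 (control IP) and 40011502 (control input). They differed in composition as well as in depth. Nuclear mRNA took 8.43% of reads in the MTA-GFP IP and 2.30% in its input, against 2.11% in the control IP and 4.31% in the control input. Chloroplast entries took 5.88% and 19.6% in the MTA-GFP IP and input, against 49.8% and 22.1% in the control IP and input. Ratios are therefore given on 2 scales. One is the share of all reads; the other is scaled by TMM factors, which take the bulk of nuclear loci as unchanged between libraries. Moving to shares raised all loci by 2.17 (log2) in the MTA-GFP IP over input and lowered them by a log2 shift of -1.14 in the control IP over input. The leaf gene RBCS1A had 12655 and 6872 reads in the MTA-GFP IP and input, against 2530 and 3965 in the control IP and input. The leaf genes LHCB1.3 and LHCB1.1 were also present in every library and were called higher in the control IP than the control input on the TMM scale (log2 1.35 and 1.89), where RBCS1A was neither (0.32). The flower and root genes AG, AP3, WER and PHT1;1 had at most 6 reads in any library.

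Reads on the chromosome 2 loci were scarce in both IPs. Their summed share was 0.00397% of reads in the MTA-GFP IP (Wilson interval 0.00377 to 0.00418) and 0.0336% in the MTA-GFP input (0.0331 to 0.0342). It was 0.00698% in the control IP (0.00674 to 0.00722) and 0.0576% in the control input (0.0569 to 0.0584). As summed reads these were 1433, 14781, 3153 and 23048. Relative to the matching input, the share was 8.47-fold lower in the MTA-GFP IP and 8.26-fold lower in the control IP. Without the 3 loci set apart below the values were 9.57-fold and 8.39-fold. Against nuclear mRNA the pairs parted: the 59 loci amounted to 0.0471% of mRNA reads in the MTA-GFP IP and 1.46% in its input, but 0.330% in the control IP and 1.34% in the control input. Per mRNA read, they were thus 31.0-fold lower in the MTA-GFP IP and 4.05-fold lower in the control IP, each against its input.

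**Figure D1:**
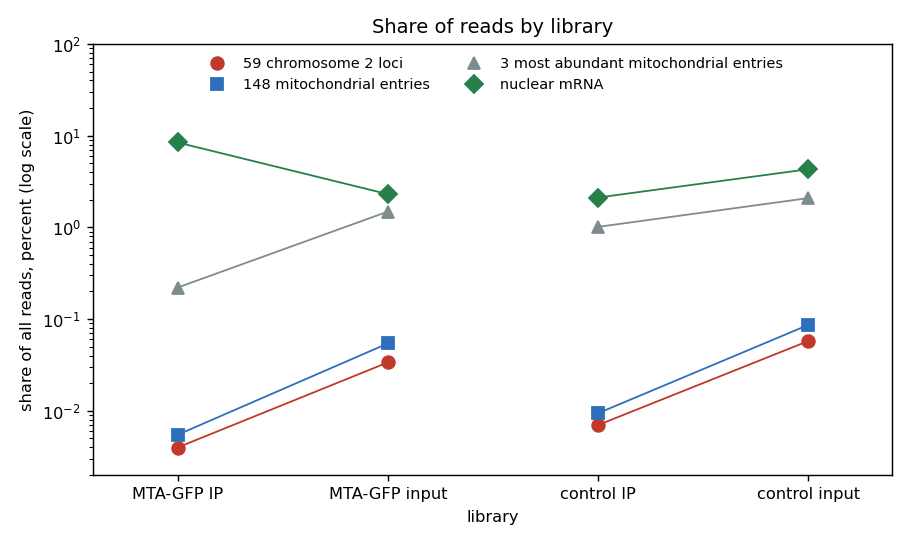
Share of all reads (percent, log scale) in each library for the 59 chromosome 2 loci, for 148 entries of the mitochondrial genome, for its 3 most abundant entries and for nuclear mRNA, each point being 1 library. The chromosome 2 loci and the 148 mitochondrial entries take a lower share of each IP than of its input, while nuclear mRNA takes 8.43% of the MTA-GFP IP against 2.30% of its input, and 2.11% of the control IP against 4.31% of its input.

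In gene order, 56 of the 59 loci fall in 1 stretch, from AT2G07771 to AT2G07835. That stretch holds 179 listed genes, 24 of them outside the numbered range. Loci of it called neighbours below are so among the 56, and other genes can lie between them. The other 3 were set apart after their values had been seen: ABCC13 and MCM5, which are next to each other just beyond the far end of that stretch, and the small nucleolar RNA gene AT2G07605, elsewhere on the chromosome. The summed values of the 56 were near those of the 148 mitochondrial entries compared below, and those of these 3 were not. The 3 most abundant mitochondrial entries differed from the 56 in the control IP over input. ABCC13, MCM5 and AT2G07605 are described separately below. No sequence was compared, so which of the 56 are copies of mitochondrial DNA was not tested beyond the matches of length and reads given below. In these bulk libraries fewer organelles in a sample and less RNA per organelle cannot be told apart. Nor can transcripts of the nuclear copy and mitochondrial transcripts whose reads were assigned to it.

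MTA-GFP IP over MTA-GFP input. A locus is called higher or lower if it differed 2-fold or more and the counting interval of the ratio did not include 1. On the TMM scale all 56 loci of the stretch were lower in the MTA-GFP IP, where 8.7% of the 15664 loci were called lower and 6.83% higher. Over the 59 loci, 56 were lower, 1 was higher (AT2G07605) and 2 were neither (ABCC13 and MCM5). The loci not lower are those set apart after their values had been seen. The median log2 ratio was -5.10 over the 59 loci and -5.16 over the 56, against -0.06 over all loci compared. The summed reads of the 59 gave -5.25 (interval -5.33 to -5.17). The 56 loci were all among the 100 lowest of the 15664 loci in this ratio, and 42 of them were among the 50 lowest. Ordered by the upper end of the interval, which puts loci with few reads higher, 52 of the 56 were among the 100 lowest. By share of reads, 51 of the 56 were called lower and 0 higher, where 0.492% of all loci (77 loci) were called lower and 93.1% higher. The minimum of 40 reads favours loci with many input reads, so the loci it left out matter here: those had 52 summed reads in the MTA-GFP IP and 221 in its input, a TMM-scaled log2 ratio of -3.96 (-4.44 to -3.53). All 162 loci of the range together gave -5.22.

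Control IP over control input. The control IP was also poor in these loci. On the TMM scale 43 of the 59 were lower, where 12.1% of all loci were called lower, and 1 was higher (AT2G07674), where 9.28% were. The median log2 ratio was -1.92 over the 59 loci, against 0.01 over all loci, and the summed reads gave -1.90 (-1.96 to -1.85). The 12 loci of the stretch called neither included AT2G07718, AT2G07655 and AT2G07777, with log2 ratios of -0.72, -0.75 and -0.50. By share of reads 55 of the 56 were lower and 0 higher, but 52.7% of all loci were lower too, and 1.25% higher. In this pair 6 of the 56 were among the 100 lowest loci. The 43 loci lower in both IPs on the TMM scale compare with 560 of all loci, or 3.58%.

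The double ratio. The double ratio divides MTA-GFP IP over input by control IP over input, and its value depended on the scale. On the TMM scale 48 of the 59 loci were lower and 0 higher, where 9.54% of all loci were called lower and 7.48% higher, and the median log2 double ratio was -3.19, against -0.05 over all loci. The summed reads gave -3.35 (-3.44 to -3.25). By share of reads the same sum gave -0.04 (-0.13 to 0.06), an interval that includes 0. The loci of the range below the minimum gave -2.79 (-3.35 to -2.24) on the TMM scale and 0.52 (-0.04 to 1.07) by share of reads. Without the 3 loci set apart, the 56 gave -0.19 (-0.29 to -0.09), and the 148 mitochondrial entries compared below gave -0.11 (-0.19 to -0.03), small differences whose intervals leave out 0. On that scale 7 loci of the stretch were lower, 7 higher and 42 neither, with a median of 0.10, where 96.6% of all loci were called higher and 0.153% lower. All loci together shifted by 3.31 (log2) between the scales. Scaled to all mitochondrial reads, nearly all of them on 3 entries, the sign turned, with a double ratio of 1.64 for the sum. The share of reads on the 56 loci was thus 9.57-fold lower in the MTA-GFP IP and 8.39-fold lower in the control IP, while the share of most nuclear loci was higher in the MTA-GFP pair than in the control pair.

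**Figure D2:**
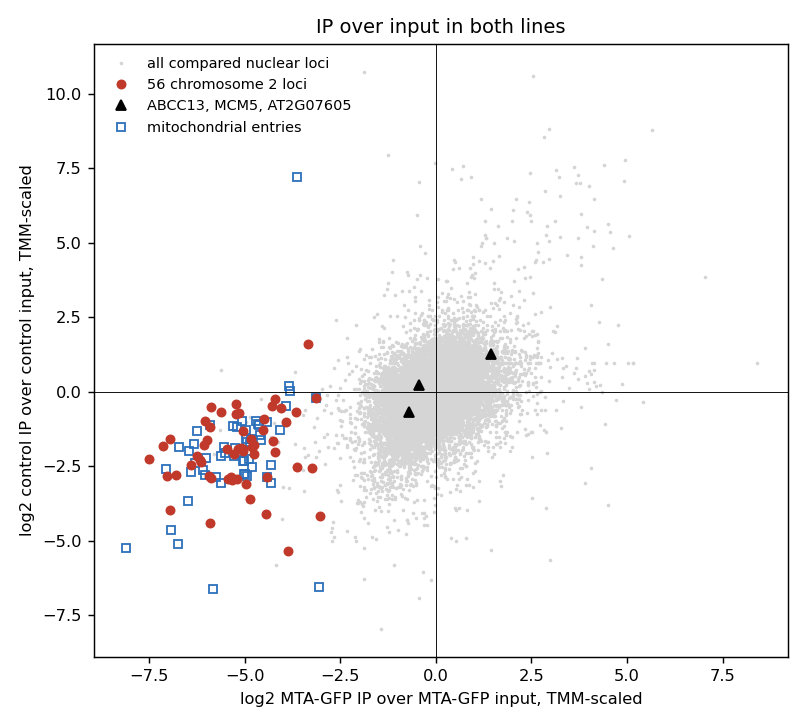
Log2 MTA-GFP IP over MTA-GFP input (horizontal axis) and log2 control IP over control input (vertical axis), both TMM-scaled, 1 point per locus. The 56 loci of the stretch lie with 55 mitochondrial entries at the left of the cloud of all compared nuclear loci. ABCC13, MCM5 and AT2G07605 lie inside that cloud. The 3 most abundant mitochondrial entries, ATMG01380 and mitochondrial entries with fewer than 40 reads are not drawn.

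The 10 loci with most reads held 70.5% of all reads on the 59. Each was called lower in both IPs by share of reads, and on the TMM scale all but AT2G07718, which was neither in the control IP. AT2G07727 had 176.5 reads in the MTA-GFP IP and 3233.2 in its input, against 540.8 in the control IP and 3640.0 in the control input. AT2G07698 had 192.6 and 1720.2 reads in the MTA-GFP IP and input, against 394.7 and 2921.3 in the control IP and input. AT2G07671 had 153.1 and 1125.5 reads in the MTA-GFP pair, against 280.9 and 1907.1 in the control pair. In these 3 loci no IP value reached its own input, and their log2 double ratios by share of reads were -0.98 (-1.23 to -0.72), 0.19 (-0.07 to 0.45) and 0.34 (0.04 to 0.65). AT2G07718 had 101.3 and 975.0 reads in the MTA-GFP IP and input, against 333.9 and 1072.1 in the control IP and input. AT2G07641 had 46 and 798 reads in the MTA-GFP pair, against 211 and 1283 in the control pair, all of them whole reads. AT2G07725 had 55.0 and 600.3 reads in the MTA-GFP pair, against 97.3 and 1470.0 in the control pair. The first and the second of these 3 were relatively better kept in the control IP, with log2 double ratios by share of -1.12 (-1.47 to -0.78) and -1.04 (-1.52 to -0.57), whereas AT2G07725 had 0.94 (0.44 to 1.43). AT2G07696 had 31.6 and 540.8 reads in the MTA-GFP IP and input, against 77.0 and 1081.7 in the control IP and input. AT2G07708 had 18.6 and 692.2 reads in the MTA-GFP pair, against 64.3 and 899.2 in the control pair. AT2G07695 had 49.8 and 488.8 reads in the MTA-GFP pair, against 96.8 and 727.3 in the control pair. Of these, AT2G07708 was the lowest in the MTA-GFP IP, at a log2 share ratio of -4.87 (-5.64 to -4.25).

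**Figure D3:**
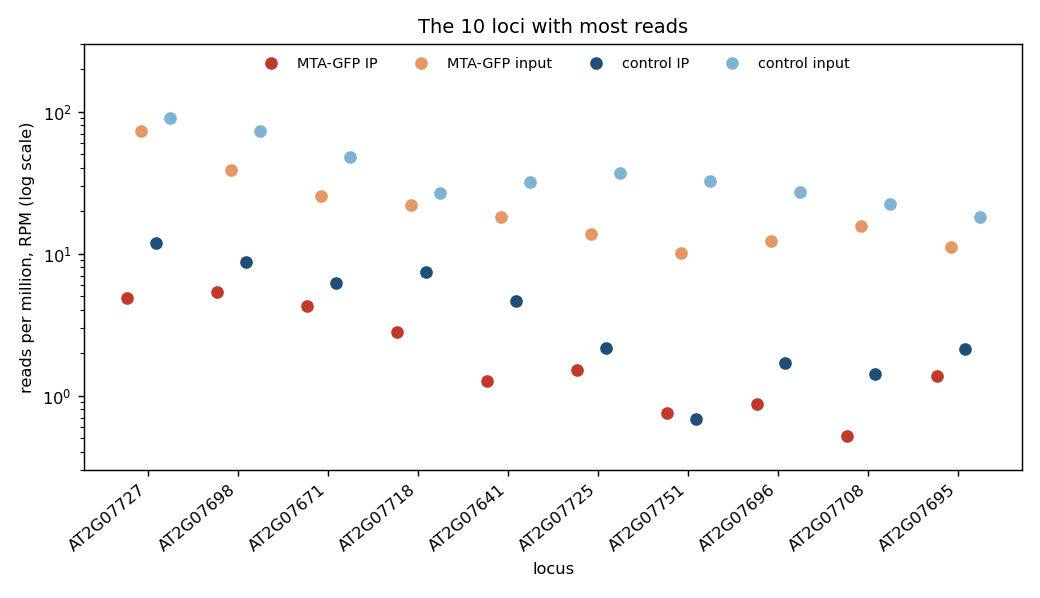
RPM (reads scaled to library depth, log scale) of the 10 chromosome 2 loci with most reads in the MTA-GFP IP, MTA-GFP input, control IP and control input, 1 point per library. Both IP points lie below both input points at every locus, and at AT2G07751 the 2 IP points nearly coincide.

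Levels per length were computed as RPM per kilobase of effective length. Over the 56 loci they ran up to 8.05 (median 0.277) in the MTA-GFP IP and 93.5 (median 3.82) in its input, against 11.8 (median 0.723) in the control IP and 301 (median 5.24) in the control input. AT2G07751 headed both inputs, at 93.5 in the MTA-GFP input and 301 in the control input. AT2G07671 came after it in both inputs, at 48.6 and 90.4, and headed both IPs of the stretch, at 8.05 in the MTA-GFP IP and 11.8 in the control IP. Deposited TPM values were low, at most 6.02 for any of the 59 in the control input.

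The 56 loci did not all share 1 value. In the MTA-GFP pair the intervals of 37 loci held the value of their own sum, 12 lay above it and 7 below it. In the control pair 32 held it, 13 lay above and 11 below, and in the double ratio the counts were 37, 13 and 6. Among the 22 loci of the stretch with at least 400 reads, the log2 share ratio of the MTA-GFP pair ran from -4.87 to -2.10 and that of the control pair from -5.54 to -1.64. Their double ratio by share ran from -1.73 to 1.81, with a median of 0.08.

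Pairs of neighbours chosen after their values were seen show how far single loci ranged. AT2G07751 had 27.0 and 443.6 reads in the MTA-GFP IP and input, against 31.0 and 1300.5 in the control IP and input. The next locus, AT2G07675, had 20 and 117 reads in the MTA-GFP pair, against 20.5 and 289.5 in the control pair. By share their log2 double ratios were 1.81 (1.06 to 2.57) and 1.77 (0.83 to 2.70). On the TMM scale they were -1.50 (-2.25 to -0.74) and -1.54 (-2.48 to -0.61), closer to 0 than the median of the 59. AT2G07674, the neighbour of AT2G07751 on the other side, had a double ratio by share of -1.62 (-3.16 to -0.09). AT2G07785 and AT2G07599, next to each other, had negative double ratios by share, and differed from each other in the log2 share ratios of the MTA-GFP pair, at -5.32 and -3.86, and of the control pair, at -3.39 and -2.12. AT2G07785 had 2.5 and 169.5 reads in the MTA-GFP IP and input, against 13.9 and 133.9 in the control IP and input, and its TMM-scaled log2 ratio in the MTA-GFP pair, -7.49 with an upper interval end of -6.14, was the lowest of the 59. AT2G07599 had 17.4 and 308.2 reads in the MTA-GFP pair, against 86.0 and 333.3 in the control pair, and a log2 double ratio by share of -1.73 (-2.51 to -0.96), beside -1.93 (-3.65 to -0.22) for AT2G07785. Members that overlap share reads in unknown part: 9 of the 59 lie in 5 overlapping pairs, and whether the counting used strand is not given.

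**Figure D4:**
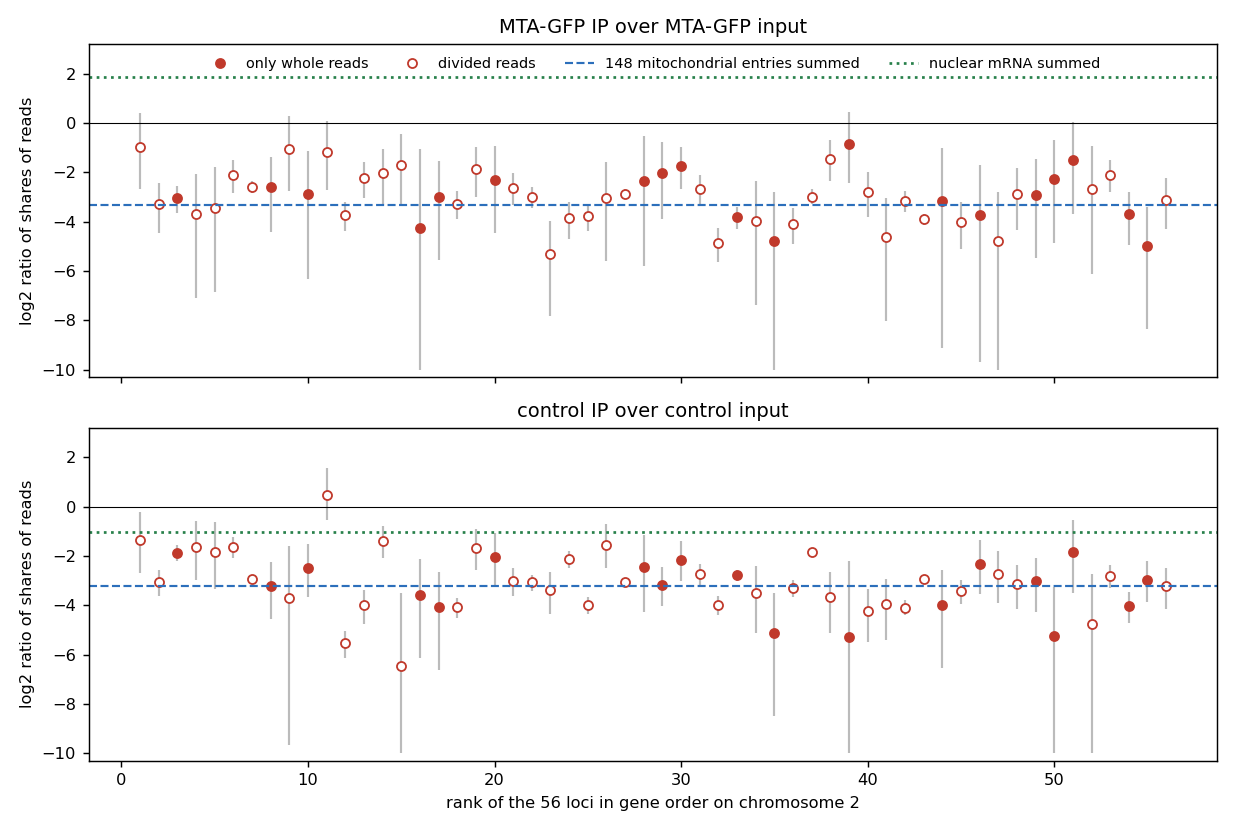
Log2 ratio of shares of reads for the 56 loci in gene order, MTA-GFP IP over input above and control IP over input below, with 95% counting intervals as grey lines cut at -10. Filled points are loci with whole reads only and open points loci with divided reads; the dashed line is the sum of 148 mitochondrial entries and the dotted line nuclear mRNA. The loci scatter around the dashed line in both panels, and AT2G07674 (rank 11) is the only point above 0 in the lower panel.

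The ends of the double ratio were held mostly by loci with few reads. On the TMM scale the lowest were AT2G07827 (-5.37), AT2G07776 (-5.35), AT2G07665 (-5.33), AT2G07785 (-5.24) and AT2G07599 (-5.04). AT2G07827 had 1 and 50 reads in the MTA-GFP IP and input, against 10 and 61 in the control IP and input. AT2G07776 had 2.3 and 39 reads in the MTA-GFP pair, against 9.2 and 26 in the control pair, and AT2G07665 had 2 and 95 against 15 and 106. The highest were AT2G07669 (1.48), AT2G07721 (1.14), AT2G07605 (0.18), MCM5 (0.00) and AT2G07659 (-0.33), and none of these 5 was called. AT2G07669 had 5.7 and 24.6 reads in the MTA-GFP IP and input, against 0 and 39.5 in the control IP and input. AT2G07721 had 7 and 16 reads in the MTA-GFP pair, against 0 and 17 in the control pair. With 3 reads put in place of 0, the control IP was at least 6.74-fold lower than its input at AT2G07669 and at least 2.90-fold lower at AT2G07721 on the TMM scale, so their fitted double ratios depend on the reads added. AT2G07659 had 3 and 20 reads in the MTA-GFP pair, against 1 and 50 in the control pair. AT2G07772 had 0 reads in the MTA-GFP IP and 11 in its input, at least 13.5-fold lower, against 3 and 37 in the control IP and input. With these 3 loci at their bounds the medians over the 59 were -5.06, -1.89 and -3.12 in the MTA-GFP pair, the control pair and the double ratio.

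The mitochondrial genome is listed under 152 entries, part of which was compared with the 56 loci. The 3 most abundant, one of them (ATMG01390) as long as the 18S ribosomal RNA gene rrn18, held 96.0% to 98.5% of mitochondrial reads in the 4 libraries. The log2 share ratio of their sum was -2.75 (-2.76 to -2.74) in the MTA-GFP pair and -1.04 (-1.05 to -1.04) in the control pair. On the TMM scale that sum gave -4.92 and 0.10, with a double ratio of -5.02. ATMG01380, as long as the 5S ribosomal RNA gene rrn5, had 1165 and 460 reads in the MTA-GFP IP and input, against 2895 and 180 in the control IP and input, unlike the rest. The other 148 entries were chosen as the comparison after those values had been seen. Their summed reads were 1971 and 23792 in the MTA-GFP IP and input, against 4244 and 34515 in the control IP and input. The log2 share ratio was -3.31 (-3.38 to -3.24) in the MTA-GFP pair and -3.20 (-3.25 to -3.15) in the control pair, beside -3.26 (-3.34 to -3.18) and -3.07 (-3.12 to -3.01) for the 56 chromosome 2 loci. The intervals overlap in the MTA-GFP pair and not in the control pair, where the sums differ by little. On both sides members were left out after their values had been seen, so the nearness of these sums is partly built in. Of the reads on the 56 loci and the 148 entries together, the chromosome 2 loci held 39.1% in the MTA-GFP IP (37.4 to 40.8) and 38.2% in its input (37.8 to 38.7), against 42.1% in the control IP (41.0 to 43.2) and 39.9% in the control input (39.5 to 40.3).

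Single mitochondrial entries were also low in the IPs. Of the 148, 55 entries had at least 40 reads, and on the TMM scale all 55 were lower in the MTA-GFP IP, 48 lower and 1 higher in the control IP and 47 lower in the double ratio, where 8.7%, 12.1% and 9.54% of nuclear loci were lower. Their medians were -5.06, -2.02 and -3.24. The one higher was ATMG00210, with 18 and 61.7 reads in the MTA-GFP IP and input, against 36.7 and 0 in the control IP and input. ATMG01190, as long as the gene atp1 for an ATP synthase subunit, had 202.2 and 3763.4 reads in the MTA-GFP IP and input, against 533.4 and 6454.8 in the control IP and input. ATMG01360, as long as cox1, which encodes a cytochrome c oxidase subunit, had 164 and 1503 reads in the MTA-GFP pair, against 383 and 1484 in the control pair. The 2 entries had TMM-scaled log2 ratios of -6.10 (-6.32 to -5.90) and -5.08 (-5.32 to -4.85) in the MTA-GFP pair, and in the control pair -2.63 (-2.76 to -2.51) and -0.99 (-1.15 to -0.83).

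For 3 of the 59 loci the tables hold a mitochondrial entry of equal length whose reads agree within 0.01 in every library, as happens when reads matching both copies are divided evenly. AT2G07707 and ATMG00480, both as long as the reference gene atp8 (477 bases), each had 26 and 205.5 reads in the MTA-GFP IP and input, against 49.5 and 297.5 in the control IP and input. AT2G07675 and ATMG00980 are both as long as rps12, a mitochondrial ribosomal protein gene (378 bases), with the reads given above for AT2G07675. ABCI5 (AT2G07771) and ATMG00900 are both as long as ccmC, a gene of cytochrome c maturation (771 bases), and each had 5.5 and 15.2 reads in the MTA-GFP pair, against 8.8 and 21.5 in the control pair. For these 3 loci the values do not separate the nuclear copy from the mitochondrial gene. Length alone links 3 more: AT2G07751 is as long as nad3 (357 bases), which encodes a complex I subunit, and AT2G07772 and AT2G07827 are as long as rpl16 (540 bases). Across the whole range 24 loci had such an identical entry, and 19 of them are transfer RNA genes.

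Loci with whole reads in every library were low in the IPs too. In 19 of the 56 loci (33.9%) every library held whole reads, within 0.01, against 47.0% of all loci compared. Their median TMM-scaled log2 ratios were -5.10 in the MTA-GFP pair, -1.89 in the control pair and -2.99 in the double ratio. The 37 loci with divided reads had -5.16, -1.93 and -3.24. AT2G07641, the whole-read locus with most reads, had log2 ratios of -5.99 (-6.46 to -5.57) in the MTA-GFP pair and -1.64 (-1.86 to -1.43) in the control pair.

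The nuclear genes for the same respiratory complexes were called at rates near those of all loci in the MTA-GFP pair. Of 33 listed genes 32 were compared. In the MTA-GFP IP 3 were lower (9.38%, against 8.7% of all loci) and 2 higher, where 6.83% of all loci were. In the control IP 1 was lower (3.13%, against 12.1%) and 1 higher, where 9.28% were. In the double ratio 4 were lower (12.5%, against 9.54%) and 2 higher, where 7.48% were. Their median log2 ratios were -0.17, 0.06 and -0.49 on the TMM scale, against -0.06, 0.01 and -0.05 over all loci. Between the inputs 5 were higher, where 7.11% of all loci were, and 0 lower, where 6.71% were. Their median there was 0.63, against 0.01 over all loci. AT5G08670, which encodes a beta subunit of the mitochondrial ATP synthase, had 546 and 245 reads in the MTA-GFP IP and input, against 147 and 286 in the control IP and input. MPPBETA, a core subunit of complex III, had 432 and 138 reads in the MTA-GFP pair, against 106 and 134 in the control pair. Both of these nuclear genes had more unscaled reads in the MTA-GFP IP than the matching input, which none of the 56 loci had. By share of reads 93.1% of all loci were called higher in that pair. On the TMM scale AT5G08670 and MPPBETA had log2 ratios of -0.73 and -0.24 there, and both were called neither.

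MTA-GFP input over control input. The inputs differed little at these loci on the TMM scale, but by share of reads the summed loci were 1.71-fold lower in the MTA-GFP input. On the TMM scale 4 of the 59 were higher in the MTA-GFP input and 1 lower, where 7.11% of all loci were called higher and 6.71% lower, and the sum gave a log2 ratio of 0.18 (0.15 to 0.21). The 4 were AT2G07776 (1.40), AT2G07749 (1.34), AT2G07674 (1.32) and AT2G07785 (1.17), and the one lower was AT2G07638 (-1.51), with 27 reads in the MTA-GFP input and 138 in the control input. By share of reads 18 of the 59 were lower and 0 higher, where 43.4% of all loci were lower and 0.619% higher, and the sum gave -0.78 (-0.81 to -0.75), beside -0.90 for nuclear mRNA.

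MTA-GFP IP over control IP. Between the IPs, 48 of the 59 loci were lower in the MTA-GFP IP on the TMM scale and 0 higher, where 4.35% of all loci were called lower and 4.97% higher. The median was -3.16, against -0.04 over all loci. By share of reads 17 were lower and 6 higher, where 0.255% of all loci were lower and 97% higher. The sum on that scale gave -0.81 (-0.90 to -0.72). Without the 3 loci set apart, the 56 gave -0.96 (-1.06 to -0.87) between the IPs and -0.77 (-0.80 to -0.74) between the inputs, intervals that do not overlap. Scaled to all mitochondrial reads the sum gave 1.35.

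The 3 loci set apart were not low in the MTA-GFP IP. ABCC13, of the ABC transporter family, had 64 and 23 reads in the MTA-GFP IP and input, against 34 and 57 in the control IP and input. MCM5, a subunit of the helicase that opens DNA for replication, had 60 and 26 reads in the MTA-GFP pair, against 24 and 77 in the control pair. AT2G07605 had 44.8 and 4.0 reads in the MTA-GFP pair, against 10 and 7.9 in the control pair. Their TMM-scaled log2 ratios in the MTA-GFP pair were -0.43 (-1.12 to 0.35), -0.69 (-1.37 to 0.04) and 1.45 (0.15 to 3.54). By share of reads 93.1% of all loci were called higher in the MTA-GFP pair. In all 3 loci set apart the MTA-GFP IP held more unscaled reads than its input, opposite to the 56 loci of the stretch. The 3 were set apart after their values had been seen, so this contrast is built in by that choice.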

How the data were processed

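The deposited tables, 1 per library, hold Salmon's estimated counts and TPM for each entry, per the file headers. Salmon, HISAT2, Bowtie and Trimmomatic are named, with build TAIR10, per the submitters' processing notes; their roles, versions and strand setting were not given in the sources used here. Reads that match several entries are divided by Salmon, which leaves the values of near-identical copies uncertain.

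Estimated counts were summed per locus without rounding, and those sums are the reads given. For the TMM factors and for the log2 ratios with their intervals and calls, the sums were rounded to whole reads. The gene table (assembly TAIR10.1) was used only for symbols, gene types, lengths and gene order; all 162 loci of the range matched. Library factors were TMM factors (edgeR 4.0.16, R 4.3.3) over the 15664 loci with at least 40 reads. With 0.5 reads added, 5 log2 ratios were formed. Intervals (95%) are exact conditional ones (Clopper-Pearson) for ratios of 2 libraries, and double ratios have Poisson intervals on the log scale and shares Wilson intervals. A call needs a ratio of at least 2-fold and an interval that leaves out 1. No p-value is given, since each group holds 1 library. The scripts were tested on simulated data.

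The rule, the lists and the comparisons were chosen with earlier results of these data known. Loci named are the 10 with most reads, the 5 highest and 5 lowest in the double ratio, those with a mitochondrial counterpart, listed mitochondrial genes, up to 6 nuclear respiratory genes and the 5 nearest loci in pattern; others were named after their values were seen. Alternatives were other scales (DESeq2 1.42.0 size factors among them), added reads, minimum reads, the deposited TPM and subsets of loci. No sequences were available to compare the nuclear copy with the mitochondrial genome.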

Additional observations from a re-analysis of the deposited data

Results flagged for a closer look

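AT2G07674 moved in opposite directions in the 2 pairs on the TMM scale. The MTA-GFP IP and input held 6.7 and 19.6 of its reads, against 21.7 and 14.3 in the control IP and input. The log2 ratio was -3.34 (-4.88 to -2.10) in the MTA-GFP pair and 1.60 (0.59 to 2.70) in the control pair, a log2 double ratio of -4.94 (-6.47 to -3.40). By share of reads it was -1.17 (-2.72 to 0.07) and 0.46 (-0.56 to 1.56), both with intervals that hold 0. With 1 library a group the difference was not tested across samples. Its reads are divided with other entries, and the neighbouring AT2G07751 was lower in both IPs.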

How the results depend on the processing

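Values below follow the order of the report, that is the MTA-GFP pair, the control pair, the double ratio, the inputs and the IPs, unless a ratio is named. Of the alternatives to the counts, medians and shares, 109 values stayed close to those reported. Another 84 moved further than counting error or 1.5-fold in a count, and 6 medians that were at least 2-fold changed sign. Sign changes of smaller medians are counted as moved. The median between the inputs, 0.215 as reported, was -0.75 scaled to all reads and -0.25 scaled to mitochondrial reads. It was -0.073 scaled to the 148 mitochondrial entries and -0.009 with the deposited TPM. Scaled to all reads, medians were -2.93, -3.06, 0.12, -0.75 and -0.81, loci higher 3, 0, 10, 0 and 6, and loci lower 7, 18 and 17 in the last 3. Scaled to mRNA reads, medians were -4.80, -2.03, -2.78, 0.16 and -2.81. Scaled to mitochondrial reads, medians were -0.18, -1.98, 1.79, -0.25 and 1.35, and the summed loci gave 1.64 in the double ratio and 1.35 between the IPs. On that scale 8, 34, 0 and 25 loci were higher and 12, 0, 5 and 0 lower in the 4 ratios other than the control pair. On the TMM scale the sum of all mitochondrial entries was -4.98 in the double ratio and -4.52 between the IPs. Scaling to that sum raises every locus by as much. Calls over all loci were not counted there, so these counts cannot be set against a share of all loci. Scaled to the 148 mitochondrial entries, an alternative chosen after seeing the data, medians were 0.38, 0.14, 0.23, -0.073 and -0.031, and the summed loci gave 0.23, 0.15 and 0.073 in the first 3. Loci higher were then 13, 14, 12, 2 and 9, and loci lower 3, 5, 4, 5 and 3, and calls over all loci were not counted on this scale either.

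With the deposited TPM plus 0.5 and a 2-fold limit alone, medians were -0.18, -0.18, -0.014, -0.009 and -0.054, loci lower 7, 4, 0, 0 and 0, and loci higher 0, 1, 0 and 1 in the last 4; the TPM sums gave 0.71 in the double ratio and 0.37 between the IPs. Most TPM values were below the 0.5 added, and calls over all loci were not counted with TPM. With 0.1 reads added the median between the IPs was -3.29; with 2 reads added medians were -4.77, -1.80 and -2.96 in the first 3 ratios and -2.96 between the IPs. With at least 100 reads, 0, 0 and 1 loci were higher in the MTA-GFP pair, the control pair and the inputs, and the median of the MTA-GFP pair was -5.19. With every locus of the range that had a read, medians were -4.47, -1.34, -3.06, 0.26 and -2.76, 3 loci were higher in the control pair and 2 lower between the inputs.

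Without ABCC13, MCM5 and AT2G07605, also chosen after seeing the data, 0 loci were higher in the MTA-GFP pair. Among whole-read loci alone, likewise chosen later, 0 were higher in the MTA-GFP pair, the control pair and the inputs, loci lower were 19, 16 and 15 in the first 3 ratios and 14 between the IPs, and medians were -2.99 in the double ratio and 0.051 between the inputs; fewer loci were counted there. Summed with the 148 mitochondrial entries, the share of reads was 0.00943% in the MTA-GFP IP, 0.0878% in its input, 0.0164% in the control IP and 0.144% in the control input. The cause of the other changes was not tested. The alternative without loci lacking a mitochondrial counterpart by protein identity or description was not run, since the gene table used here gives neither. No paired analysis was possible because each group had 1 library. Depth limits single loci: 31 of the 59 had under 10 reads in the MTA-GFP IP and 21 in the control IP.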

Other observations

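By the distance between TMM-scaled log2 values of the 4 libraries, each centred on its mean, 52 of the 100 nuclear loci nearest to the summed chromosome 2 loci were among the 59 themselves, which is partly built in, since these loci make up the sum. Of the 59, 27 lay farther from the sum than the 5th nearest locus outside the range, and the nearest outside, AT2G12905, was at a distance of 0.236. The 5 nearest loci outside the numbered range were AT2G12905, AT1G26720, the long noncoding RNA gene AT2G05215, PIL1 and AT1G31835. AT2G12905 had 38 and 473 reads in the MTA-GFP IP and input, against 104 and 735 in the control IP and input, all whole reads, and a log2 ratio of -5.51 in the MTA-GFP pair. PIL1, a transcription factor gene of the shade response, had 24 and 205 reads in the MTA-GFP IP and input, against 109 and 433 in the control IP and input.

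Transfer RNA loci of the range had few reads. AT2G07792, the one of those with an identical mitochondrial entry that had most, had 1 and 4.19 reads in the MTA-GFP IP and input, against 1.5 and 25.5 in the control IP and input.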
